A study of Mus musculus with 10 samples.

Results

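The retinoic acid pathway is described here through 9 genes of known role: the retinoic acid binding proteins *Crabp1* and *Crabp2*, the receptors *Rara*, *Rarb* and *Rarg*, the degrading enzymes *Cyp26a1* and *Cyp26b1*, the synthesizing enzyme *Aldh1a2* and the retinaldehyde reductase *Dhrs3*. All 9 were found in both deposited tables of unique molecular identifiers (UMIs), which share 26842 genes by symbol. Their levels were compared between libraries, between WT and dCD d4 embryoid bodies (EB), and between dCD cells with and without UMIs of *Stra8*, to see whether the response to retinoic acid goes with *Stra8*.

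The libraries were single-cell RNA-seq (scRNA-seq) of mouse embryonic stem cells (ESC) and cells derived from them. In the line E14Tg2a, which is wild type, 8 libraries covered ESC in 2i medium with LIF (2i ESC), epiblast-like cells at days 1, 2 and 3 (d1, d2 and d3 EpiLC), epiblast stem cells (EpiSC), EB at days 2 and 4 (d2 and d4 EB) that were made from d2 EpiLC and contain primordial germ cell-like cells (PGCLC), and ESC in serum with LIF (S+L ESC). In the line R1, 2 libraries covered d4 EB of WT cells and of Mll3/4 dCD cells, in which point mutations remove the methyltransferase activity of MLL3 and MLL4 (*Kmt2c* and *Kmt2d*), the enzymes that place H3K4me1 at enhancers. The dCD cells were 1 line made from R1, and no count of *Kmt2c* or *Kmt2d* can check point mutations. No retinoic acid is named among the additions to the media, but whether the serum or the medium supplements held retinoids is not stated.

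Each condition had 1 library, so stage or genotype and library cannot be told apart, no test was run, and cells were not taken as replicates. Levels are UMIs summed over the cells of a library and scaled to 1000000 UMIs (CPM), with exact 95% Poisson intervals in parentheses. Ratios have exact conditional intervals and shares of cells exact Clopper-Pearson intervals, also at 95%, and all of them cover counting error only. The libraries held 227 to 537 cells in E14Tg2a, with medians of 21658 (d4 EB) to 36750 (d1 EpiLC) UMIs per cell, and 1416 WT and 1699 dCD cells in R1, with medians of 13187.5 and 11751. A gene was called higher or lower between 2 groups where its CPM differed at least 2-fold and both groups together held at least 50 UMIs. A gene near 0 UMIs in 1 group can reach this minimum only through the other group, where it is then higher. For such genes a count in 1 direction follows from the minimum and is not a result about the list. The tables of the 2 lines were made separately, so levels are compared within a line, and a level summed over a library does not tell fewer cells of a type from less RNA per cell. Markers of other cells differed between the R1 libraries, and their part in the results was not tested: the summed level of 6 extraembryonic mesoderm markers was 1305 CPM in WT and 318 in dCD, of extraembryonic ectoderm markers 61.2 (*Elf5* at 0) and 245, of naive pluripotency markers 506 and 711, and of markers of 2-cell embryos 0.0486 (5 of 6 at 0) and 25.5. PGC markers summed to 108 and 104 CPM. The study found mainly WT cells in its PGCLC cluster of these libraries, so like sums do not mean like numbers of PGCLC.

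Retinoic acid is made from retinol through retinaldehyde. Enzymes of the Aldh1a family carry out the last, irreversible step, DHRS3 turns retinaldehyde back into retinol, CRABP proteins carry retinoic acid in the cytoplasm, and CYP26 enzymes degrade it. In the nucleus the RARs bind DNA with RXR partners at repeats of a short half-site, and *Rarb*, *Cyp26a1* and *Hox* genes are textbook targets. In the embryo the pathway patterns the hindbrain and trunk, and in germ cells it is known for inducing *Stra8*, which germ cells need to enter meiosis.

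As background to *Rarb*, *Cyp26a1* and *Stra8*, the RAR half-sites close to their starts are shown first. The half-sites searched were AGGTCA, with the similar AGTTCA, and also GGGTCA, with the similar GGTTCA, on both strands, alone and as direct repeats 1, 2 or 5 bases apart, in RefSeq promoters of build GRCm38.p6 (250 bases before to 50 after the gene start). Promoters were listed for 8 of the 9 members, the exception being *Crabp2*, and for *Stra8*. Repeats 5 bases apart were found in *Rarb* and *Cyp26a1*, the 2 of these 8 members with any such repeat, and in 0.0974% of all 32851 promoters. *Stra8* held 2 separate half-sites and no repeat, and at least 1 half-site was found in 43.7% of all promoters. Each window below is written along the gene's strand with the half-sites in capitals.
Rarb, chr14:16575507-16575535, minus strand, repeat at -53 to -37 from the start: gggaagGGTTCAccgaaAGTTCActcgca
Cyp26a1, chr19:37697770-37697798, plus strand, repeat on the opposite strand at -32 to -16 from the start: taaagaTGAACTttgggTGAACTaatttg
Stra8, chr6:34920742-34920771, plus strand, half-site at -194 to -189 from the start: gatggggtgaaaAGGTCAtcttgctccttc
Stra8, chr6:34920898-34920927, plus strand, half-site at -38 to -33 from the start: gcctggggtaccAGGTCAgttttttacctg
The annotation also places the windows of *Rarb* and *Stra8* inside an annotated exon. These matches are descriptions of the letters, and no link between them and the levels of the genes was tested. *Rara* had 5 half-site matches over its 4 promoters and *Rarg* 1 over its 2, and none of the 4 other members with a promoter (*Crabp1*, *Cyp26b1*, *Aldh1a2* and *Dhrs3*) held any.

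Of the genes that set the supply of retinoic acid, both members were low. *Aldh1a2*, the main retinaldehyde dehydrogenase of the early embryo (ENSMUSG00000013584, chr9:71215789-71296243, GRCm38), had at most 18 UMIs in an E14Tg2a library. That maximum was 1.87 CPM (1.11 to 2.96) in d4 EB, where 1 cell held 8 of the 18 UMIs. The other 7 libraries lay between 0.0683 and 0.546 CPM, from 1 to 6 UMIs each. In R1 it had 28 UMIs in WT and 13 in dCD, or 1.36 and 0.568 CPM, too few for the 2-fold rule. *Dhrs3* (ENSMUSG00000066026, chr4:144892827-144928209) stood at 0.571 CPM in 2i ESC, 1.73 in d1, 2.51 in d2 and 7.46 in d3 EpiLC. EpiSC had 3.06 CPM, the EB 7.92 on d2 and 5.52 on d4, and S+L ESC 1.09. The 2 ESC libraries were lowest, and the intervals of d3 EpiLC (6.10 to 9.03), d2 EB (6.54 to 9.50) and d4 EB (4.13 to 7.22) overlap.

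The 2 binding proteins were each highest in EB among the E14Tg2a libraries. *Crabp1* (ENSMUSG00000032291, chr9:54764748-54773110) had 8.45 CPM in 2i ESC, 9.73 in d1, 26.2 in d2 and 22.1 in d3 EpiLC. It was lowest in EpiSC, at 2.27 CPM (1.52 to 3.26), and highest in EB, at 82.9 (78.3 to 87.7) on d2 and 131 (124 to 139) on d4, with 22.3 in S+L ESC. The interval of either EB library lies above those of the 6 other libraries. *Crabp2* (ENSMUSG00000004885, chr3:87948666-87953376) had 1.26 CPM in 2i ESC and 1.48 in S+L ESC, whose intervals overlap. It was 11.1 in d1, 13.7 in d2 and 24.6 in d3 EpiLC, and then 5.80 in EpiSC. The EB had 47.8 CPM (44.3 to 51.5) on d2 and 33.9 (30.4 to 37.8) on d4. In contrast to *Crabp1*, its d2 EB level lay above its d4 EB level.

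**Figure D1:**
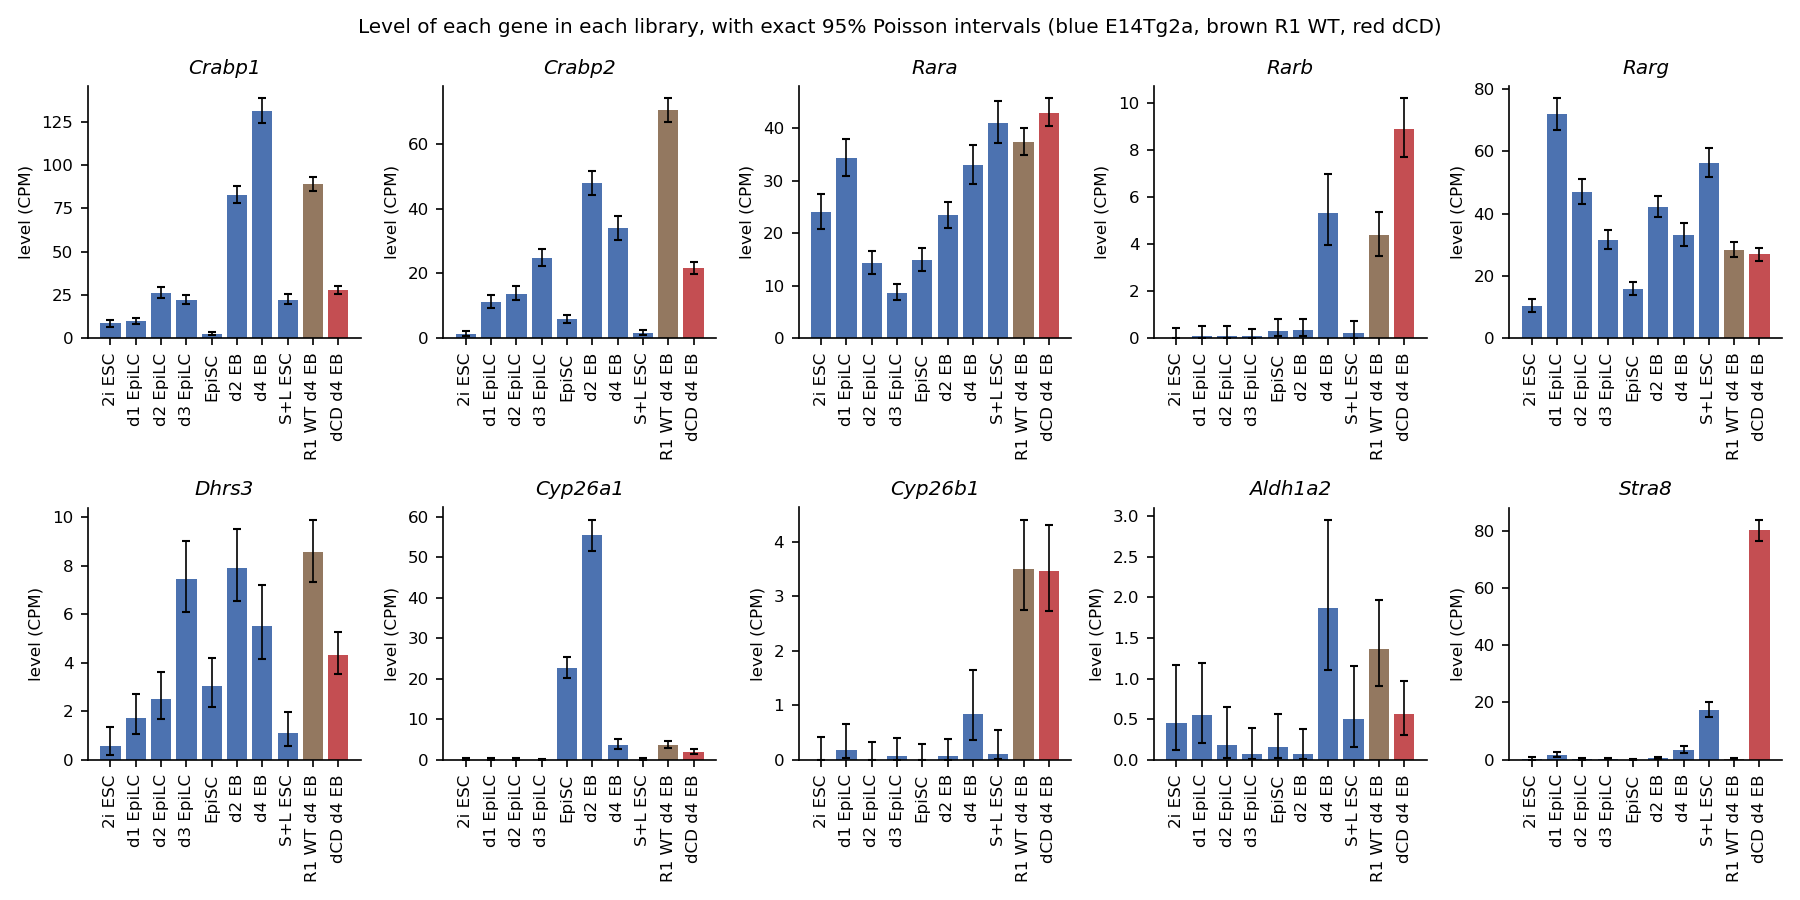
Level of each of the 9 members and of Stra8 (CPM, linear axes from 0) in the 10 libraries; bars are summed UMIs per 1000000 and lines are exact 95% Poisson intervals. Among E14Tg2a libraries Crabp1 and Crabp2 stand highest in EB and Cyp26a1 in d2 EB. Within R1, Stra8 stands at 80.3 CPM in dCD and 0.243 in WT d4 EB, and levels are compared within a line only.

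Among the receptors, *Rara* and *Rarg* were found in every library, while most *Rarb* UMIs of E14Tg2a lay in d4 EB. *Rara* (ENSMUSG00000037992, chr11:98927818-98974942) had 24.0 CPM in 2i ESC, 34.3 in d1, 14.3 in d2 and 8.66 in d3 EpiLC. EpiSC had 14.9 CPM, the EB 23.4 on d2 and 32.9 on d4, and S+L ESC 41.1. It was thus lowest in d3 EpiLC and highest in S+L ESC. The intervals of d2 EpiLC and EpiSC overlap, as do those of 2i ESC and d2 EB, of d4 EB and d1 EpiLC, and of d1 EpiLC and S+L ESC. *Rarg* (ENSMUSG00000001288, chr15:102234938-102257517) had 10.3 CPM in 2i ESC, 71.9 in d1, 47.0 in d2 and 31.6 in d3 EpiLC. EpiSC had 15.8 CPM, the EB 42.3 on d2 and 33.0 on d4, and S+L ESC 56.1. Its highest and lowest levels were thus those of d1 EpiLC and 2i ESC. Of the UMIs of the 3 receptors in a library, *Rarg* held 30.0% (24.9 to 35.5) in 2i ESC, 67.7% in d1, 76.6% in d2 and 78.3% in d3 EpiLC. The share was 51.0% in EpiSC, 64.0% and 46.3% in the EB of d2 and d4, and 57.6% (54.5 to 60.7) in S+L ESC. *Rarb* (ENSMUSG00000017491, chr14:16430839-16819156) had 51 UMIs in d4 EB, 5.31 CPM (3.95 to 6.98), and 0 to 5 UMIs in each of the 7 other libraries, at most 0.341 CPM.

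The degrading enzymes were restricted to fewer libraries. *Cyp26a1* (ENSMUSG00000024987, chr19:37697798-37701536) had 0 UMIs in 2i ESC, in all 3 EpiLC libraries and in S+L ESC, which allows at most 0.213 to 0.343 CPM by the limit of 3 counts. It had 22.6 CPM (20.1 to 25.4) in EpiSC, 55.4 (51.6 to 59.3) in d2 EB and 3.64 (2.54 to 5.07) in d4 EB, and these 3 intervals do not overlap. *Cyp26b1* (ENSMUSG00000063415, chr6:84571414-84593908) had 8 UMIs in d4 EB and 0 to 2 in each other E14Tg2a library.

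*Stra8* itself (ENSMUSG00000029848, chr6:34920163-34939344) had 176 UMIs in S+L ESC, 17.4 CPM (14.9 to 20.2), against 33 in d4 EB, 18 in d1 EpiLC, 6 in d2 EB, 3 in d3 EpiLC, 2 in 2i ESC, 1 in d2 EpiLC and 0 in EpiSC, where a count of 0 allows at most 0.235 CPM. At least 1 UMI of *Stra8* was found in 28.2% (23.2 to 33.5) of the 309 S+L ESC. In that library *Crabp2*, *Rarb* and *Cyp26a1* were at 1.48, 0.198 and 0 CPM, *Crabp1* at 22.3, *Rarg* at its second highest level of 56.1 and *Rara* at its highest, 41.1.

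From 2i ESC to d2 EpiLC, 4 members held enough UMIs. *Crabp1*, *Crabp2* and *Rarg* were higher, 3.10-fold (2.39 to 4.05), 10.9-fold (5.93 to 22.3) and 4.57-fold (3.65 to 5.78), where 16.7% of all 9968 genes with enough UMIs were higher, and none was lower, against 7.33%. *Rara* had a ratio of 0.594 (0.481 to 0.734). Of the 16 other pathway genes 10 were measured and 4 were higher: *Rbp4*, a retinol carrier, the retinol dehydrogenase *Rdh11*, *Fabp5*, a fatty acid binding protein that also carries retinoic acid, and the receptor partner *Rxrg*. The corepressor *Nrip1* was lower. Of 12 response genes 2 were measured. Both *Cdx1* (63 and 1 UMIs) and *Meis2* (82 and 4) were lower, and both reached the minimum through 2i ESC. In the germline list 6 of 12 measured genes were higher and none lower, with *Stra8* at 1 UMI in d2 EpiLC. Naive pluripotency markers went from 1464 to 47.9 CPM in sum, and the part of this change of state in the results was not tested, here or in the comparisons that follow.

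Between d2 EpiLC and EpiSC, *Cyp26a1* was at least 84.2-fold higher in EpiSC, with 289 UMIs against 0 and the limit of 3 counts in d2 EpiLC as its base. *Crabp1* was 11.5-fold lower (7.85 to 17.5), *Rarg* 2.97-fold lower (2.52 to 3.51) and *Crabp2* 2.37-fold lower (1.78 to 3.17), while *Rara* and *Dhrs3* had ratios of 1.04 and 1.22. The 1 member of 6 that was higher compares with 11.0% of 10665 genes, and the 3 that were lower with 5.89%. In the list of other pathway genes 6 of 11 measured were higher and none lower. Among them *Fabp5* went from 249 to 824 CPM. The 1 response gene with enough UMIs, *Foxa1*, was higher, and all 11 measured germline genes were lower. *Foxa1* reached the minimum through EpiSC (124 UMIs against 0). The germline genes reached it mainly through d2 EpiLC, with 0 to 12 UMIs each in EpiSC, so the minimum largely set these directions. Beside this, 6 markers of primitive streak or nascent mesoderm went in sum from 42.0 to 357 CPM.

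From d2 EpiLC to d4 EB, 5 of 6 measured members were higher and none lower, where 23.8% and 11.5% of 10943 genes were. *Rarb* was 59.2-fold higher, with 51 UMIs against 1 in d2 EpiLC and a lower bound of 10.2. *Crabp1* was 5.02-fold (4.42 to 5.72), *Crabp2* 2.48-fold (2.04 to 3.02), *Rara* 2.31-fold (1.90 to 2.81) and *Dhrs3* 2.20-fold higher (1.37 to 3.61), the last at 1.94-fold when the libraries were scaled by TMM factors. *Rarg* had a ratio of 0.703 (0.609 to 0.809). All 5 response genes with enough UMIs were higher: *Hoxb2*, *Hoxb4*, the Hox cofactors *Meis1* and *Meis2*, and the transglutaminase *Tgm2*. Each reached the minimum through d4 EB, with 0 to 4 UMIs in d2 EpiLC, so the minimum set their direction. *Meis2* went from 0.359 to 109 CPM and *Tgm2* from 0.269 to 28.3 CPM. Of 11 measured germline genes 9 were lower and *Rec8* was higher. Markers of other cell types differed as well: the summed level of 6 extraembryonic mesoderm markers was 0.896 CPM in d2 EpiLC (4 at 0) and 594 in d4 EB, of 6 extraembryonic ectoderm markers 3.41 and 596, and of 6 endothelium markers 3.68 (4 at 0) and 262. The median log2 ratio was 1.20 over the measured members and 4.17 over the response genes, against 0.19 over all measured genes. The median of the response genes rests on the same choice by the minimum, and *Rarb* was also measured through d4 EB.

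Between 2i and S+L ESC, *Crabp1* and *Rarg* were higher in S+L ESC, 2.64-fold (2.02 to 3.48) and 5.46-fold (4.37 to 6.90), 2 of 3 measured members against 9.16% of 9718 genes. None was lower, against 3.36%, and *Rara* had a ratio of 1.71 (1.45 to 2.03). *Stra8* was 76.3-fold higher (20.8 to 635). Among response genes *Tgm2* was higher, while *Cdx1* (7.19 to 2.77 CPM) and *Meis2* (9.36 to 0.594 CPM) were lower. In the germline list, 7 of 9 measured genes were higher and none lower, among them *Dazl* and *Ddx4*, which encode RNA-binding proteins of germ cells. Markers of 2-cell embryos had 0 UMIs in 2i ESC and 21.4 CPM in sum in S+L ESC.

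As a description over the 8 E14Tg2a libraries, the 3 genes of 8824 whose log2(CPM + 1) followed a member most closely were named by Pearson r. For *Cyp26a1* they were *Cfc1*, a coreceptor of Nodal (r = 0.990), *Hsf2* (0.954) and *Tmem185a* (0.952). *Crabp2* was followed by *Trpm7* (0.990), *Kmt2a* and *Ccdc91* (both 0.979), and *Crabp1* by *Ctdspl2* (0.961), *Tln2* and *Evi5* (both 0.952). For the receptors these genes were *Trip12* (0.968), *1810013L24Rik* (0.962) and *Atp9a* (0.961) with *Rara*, and *Chn1* (0.970), *Zfp652* (0.893) and *Grhl2* (0.887) with *Rarg*. *Dhrs3* was followed by *Tpm1* (0.982), *Mex3a* (0.976) and *Ptp4a2* (0.974). The 8 points share a kit and a depth normalization. With 0 UMIs of *Cyp26a1* in 2i ESC, all 3 EpiLC libraries and S+L ESC, its r rests on EpiSC and the EB. The genes were picked as the highest of 8824 over 8 points, so high r values come with the choice.

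Within the EB of E14Tg2a, *Crabp1*, *Crabp2*, *Cyp26a1* and *Dhrs3* had lower levels in the PGCLC than in the other cells. The study lists 91 PGCLC in d2 EB and 44 in d4 EB, chosen from the same cells, so the following values are descriptions. In d2 EB, *Crabp1* had 9.21 CPM in PGCLC and 101 in the other 446 cells, *Cyp26a1* 6.82 and 67.5, *Crabp2* 12.3 and 56.7, and *Dhrs3* 1.70 and 9.47. *Rara* differed less, at 20.8 and 24.1 CPM. In d4 EB, *Crabp1* had 0 UMIs in the 44 PGCLC and 1262 in the other 324 cells, at least 51.9-fold higher in CPM. *Crabp2* had 5.69 and 37.4 CPM, *Rara* 16.1 and 35.0, and *Rarg* 30.3 and 33.3. *Rarb* had 0 and 51 UMIs. *Stra8* showed the opposite distribution, with 30 of its 33 UMIs in the PGCLC, 28.4 against 0.351 CPM.

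All cells of the E14Tg2a EB were clustered without the members, the pathway and response lists, germline genes or *Stra8*. In d2 EB, the extraembryonic mesoderm-like cluster (393 of 537 cells) held 97.3% of the *Cyp26a1* UMIs, 96.0% of *Crabp1* and 88.7% of *Crabp2*, with 66.2% of all UMIs. In this cluster 4 of 5 detected extraembryonic mesoderm markers were 2-fold higher (median 8.36-fold). Of the markers of primitive streak or nascent mesoderm, 3 of 5 were also 2-fold higher there (median 3.51-fold), so the name does not single out 1 tissue. In d4 EB, the extraembryonic mesoderm-like cluster (253 of 368 cells) held 97.3% of *Crabp1* and 93.3% of *Crabp2* but 15.1% of *Dhrs3*, with 55.5% of all UMIs. *Dhrs3* lay mostly (69.8%) in the 39 extraembryonic ectoderm-like cells, at 19.7 CPM. *Rarb* was spread over both, with 28 UMIs in the former and 16 in the latter.

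In R1 d4 EB, *Stra8* had 5 UMIs in WT and 1837 in dCD, 0.243 against 80.3 CPM, a ratio of 330.5 (141 to 1019). It was found in 0.353% (0.115 to 0.822) of 1416 WT cells and 30.2% (28.0 to 32.4) of 1699 dCD cells. The members of the pathway did not show a change of this kind. Of 8 with enough UMIs, 1 was higher in dCD (9.51% of 13148 genes were) and 2 were lower (5.98%). *Crabp1* was 89.0 CPM (85.0 to 93.2) in WT and 27.7 (25.5 to 29.9) in dCD, 3.22-fold lower (2.94 to 3.53). *Crabp2* was 70.4 CPM (66.8 to 74.1) in WT and 21.5 (19.7 to 23.5) in dCD, 3.27-fold lower (2.95 to 3.63). *Rarb* was 4.37 CPM (3.52 to 5.37) in WT and 8.91 (7.73 to 10.2) in dCD, 2.04-fold higher (1.58 to 2.64). This call stood at the border of the rule, with 1.97-fold when doublets were left out and 1.998-fold under TMM factors.

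The other members did not pass the 2-fold rule. *Dhrs3* was 8.55 CPM in WT and 4.33 in dCD (ratio 0.506, 0.391 to 0.651) and *Cyp26a1* 3.69 and 1.92 (0.521, 0.351 to 0.765), so both intervals lie below 1. *Rara* was 37.4 and 43.0 CPM (1.15, 1.04 to 1.26), *Rarg* 28.4 and 26.9 (0.946, 0.843 to 1.06), and *Cyp26b1* 3.50 and 3.45 (0.987, 0.708 to 1.38). Under TMM factors *Dhrs3* passed as lower, at 0.496. In the other pathway genes, 2 of 11 measured were lower and none higher: the retinol dehydrogenase *Rdh10*, at 20.1 and 8.96 CPM, and the retinaldehyde dehydrogenase *Aldh1a3*, at 3.64 and 1.14 CPM. Of 8 measured response genes, *Hoxb2* was 2.86-fold and *Hoxb4* 2.18-fold lower, *Cdx1* was 6.57-fold higher (3.67 to 12.8), and 5 did not pass. In contrast, 12 of 12 measured germline genes were higher, from 3.71-fold for *Stag3* and *Meioc* to 16.7-fold for *Taf7l*. The medians of the log2 ratio were -0.38 for the members, -0.36 for the response genes, 2.04 for the germline genes and 0.01 for all measured genes.

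WT and dCD cells fell into 9 clusters, again formed without the genes described here, and the clusters held unequal numbers of cells of either genotype. Cluster 4, extraembryonic mesoderm-like, held 529 WT and 22 dCD cells, and cluster 5, unnamed and led by *Smoc2*, *Lum* and *Col6a3*, held 340 and 53. Cluster 2, unnamed and led by *Nkx2-5* and *Cntnap5a*, held 67 WT and 521 dCD cells. Cluster 1, PGC-like by its markers (5 of 6 over 2-fold higher) and led by the globin genes *Hba-x*, *Hbb-y* and *Hbb-bh1*, held 157 and 538. Globin genes also led the cluster of E14Tg2a d4 EB that held all 44 listed PGCLC. Cluster 3, naive pluripotency-like, held 132 and 441. PGC markers were also higher in cluster 3 (4 of 6 past 2-fold), with a median of 3.78-fold against 2.49-fold in cluster 1. The name of cluster 1 thus does not single out PGCLC, and the study placed mainly WT cells in its own PGCLC cluster. Cluster 6, unnamed and led by *Vgll3*, *Ccl2* and *Cryab*, held 147 and 78 cells. Clusters 7 (endoderm or gut-like), 8 (endothelium-like) and 9 (2-cell embryos-like, led by *Gm21761*, *Gm8300* and *Gm5039*, with *Zscan4d* and *Zscan4c* among its first 10 genes) held 36, 27 and 27 cells, and all 27 of cluster 9 were dCD cells.

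Most UMIs of the binding proteins in WT and of *Stra8* in dCD lay in different clusters. In WT, clusters 4 and 5 held 89.7% of *Crabp1* UMIs and 87.2% of *Crabp2* UMIs, with 55.6% of all UMIs. In dCD, clusters 1 and 3 held 1791 of 1837 *Stra8* UMIs (97.5%) and 24 of 204 *Rarb* UMIs (11.8%), with 59.2% of all UMIs. The binding proteins were also found there, with 31.8% of *Crabp1* and 23.7% of *Crabp2* UMIs of dCD. Clusters 2 and 6 held 82.8% of *Rarb* UMIs, with 34.1% of all UMIs, and cluster 2 alone held 77.2% of *Cyp26b1* and 60.0% of *Crabp2*. *Cyp26a1* reached its highest level in the 36 cells of cluster 7, 61.9 CPM in WT (29 UMIs) and 125 in dCD (18 UMIs), cells led by *S100g*, *Spink1* and the transthyretin gene *Ttr*.

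**Figure D2:**
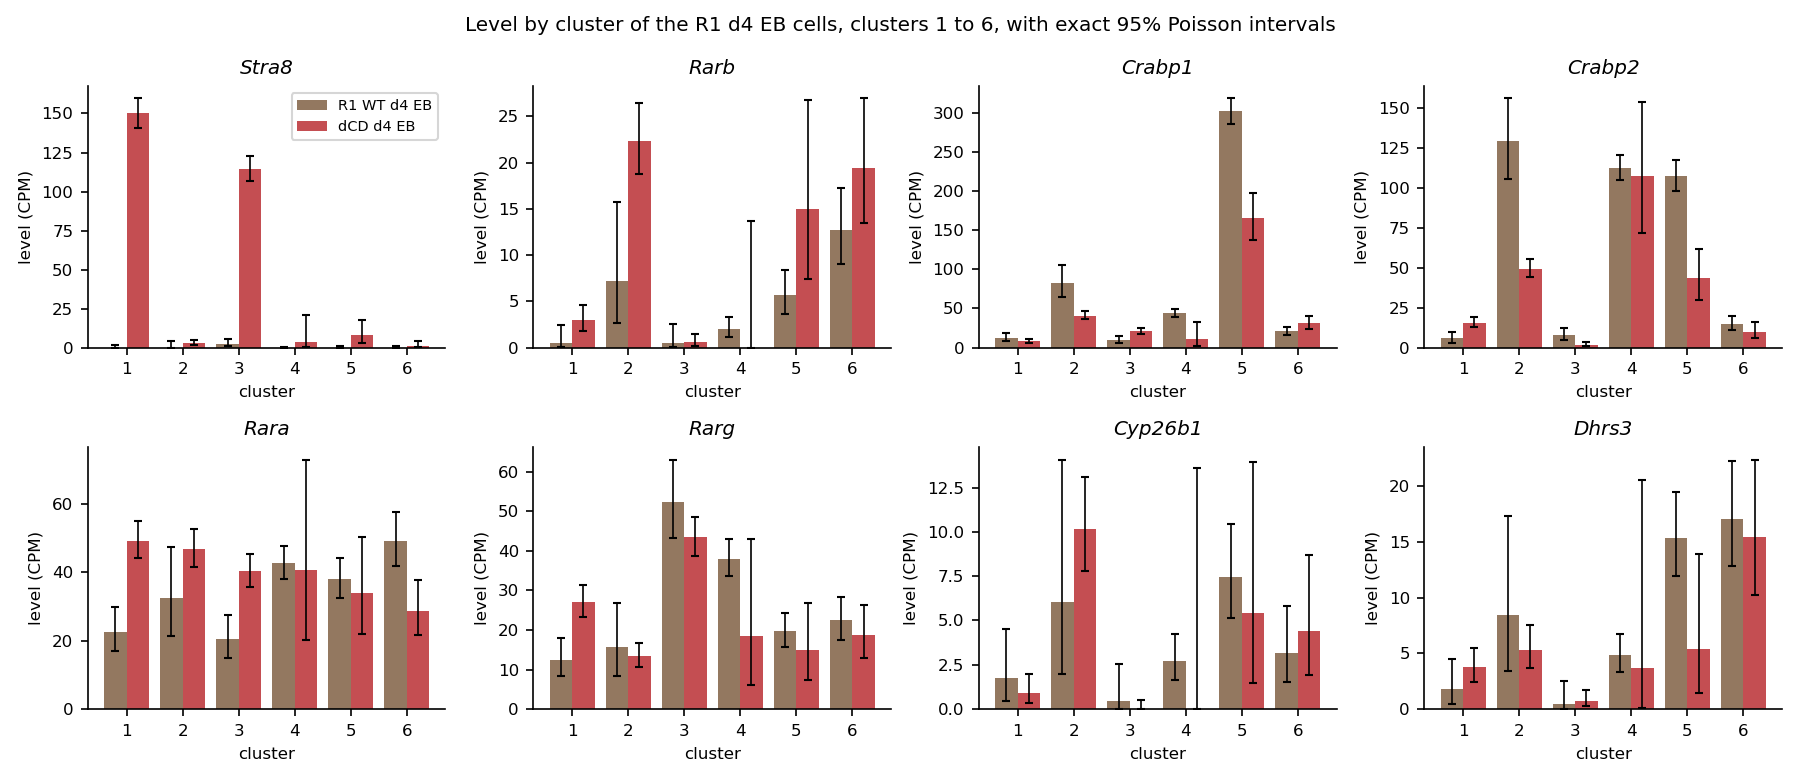
Level (CPM, linear axes from 0) of Stra8 and 7 members in clusters 1 to 6 of R1 d4 EB cells, WT in brown and dCD in red, with exact 95% Poisson intervals. Stra8 stands in clusters 1 and 3 of dCD, at 150.1 and 115 CPM, while Rarb stands in clusters 2, 5 and 6.

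Within a cluster, the difference between genotypes was not the same for every member. In cluster 2, *Rarb* was 7.23 CPM in WT (6 UMIs) and 22.4 in dCD (134 UMIs), a ratio of 3.09 (1.38 to 8.58), and *Crabp2* 129 and 49.4, a ratio of 0.383 (0.306 to 0.482). In cluster 5, *Rarb* was 5.65 and 14.9 CPM (2.65, 1.18 to 5.58), *Crabp1* 302 and 166 (0.549, 0.453 to 0.662) and *Crabp2* 107 and 43.5 (0.405, 0.274 to 0.580). In cluster 3, *Crabp1* went the other way, 10.0 in WT and 21.0 in dCD (2.09, 1.33 to 3.44), while *Crabp2* was 7.76 and 1.89 (0.244, 0.109 to 0.534). In cluster 1, *Crabp2* was higher in dCD, 5.76 and 15.5 (2.70, 1.51 to 5.23). *Rara* was 22.6 and 49.2 CPM in cluster 1 (2.17, 1.62 to 2.98) and 20.5 and 40.4 in cluster 3 (1.97, 1.43 to 2.76), but 49.1 and 28.8 in cluster 6 (0.586, 0.420 to 0.808). *Rarg* was 12.4 and 27.1 in cluster 1 (2.18, 1.46 to 3.37) but 52.5 and 43.4 in cluster 3 (0.827, 0.665 to 1.03). *Stra8* was at 0 UMIs in the 157 WT cells of cluster 1 and 150.1 CPM in dCD, at least 113-fold higher, and 2.28 and 115 CPM in cluster 3 (5 and 787 UMIs).

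When the WT levels of the clusters were weighted by the share of dCD UMIs in each cluster, part of the difference between the libraries went with the clusters. *Crabp1* then had a ratio of 0.677 in place of 0.311, no longer past 2-fold, and *Crabp2* 0.492 in place of 0.306. *Rarb* had 2.61, *Rara* 1.57, *Rarg* 1.01, *Dhrs3* 0.887 and *Cyp26b1* 1.25. Clusters 1, 2 and 3 carried most of the weight. There WT held 1, 6 and 1 UMIs of *Rarb*, 4, 7 and 1 of *Dhrs3* and 4, 5 and 1 of *Cyp26b1*. The weighted ratios of these genes thus rest on few WT UMIs and have no interval. *Cyp26a1* had 2.39 in place of 0.521, but WT clusters with 0 UMIs of it carried 56.1% of the weight, and with these at the limit of 3 counts each the ratio was 0.899, so no direction was read from it. *Stra8*, with 0 UMIs in 7 of 8 WT clusters, was at least 35.8-fold higher with these clusters at the same limit.

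**Figure D3:**
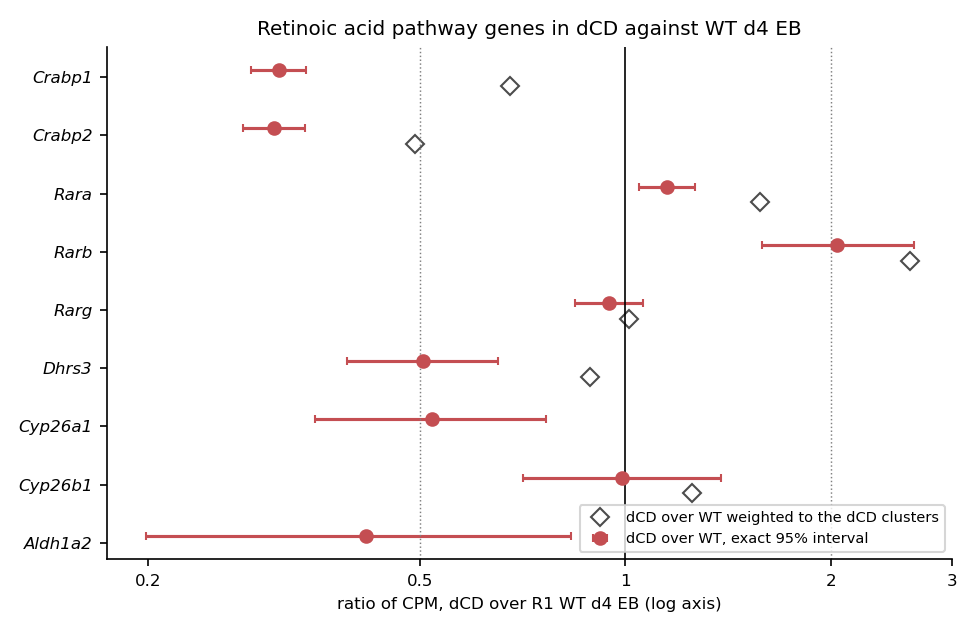
Ratio of CPM in dCD over WT d4 EB (log axis) for the 9 members; red points are whole libraries with exact 95% conditional intervals and open diamonds use WT levels weighted to the dCD clusters, with no interval, and are left out for Cyp26a1 and Aldh1a2, which had 0 UMIs in WT clusters of large weight. Crabp1 and Crabp2 lie at 0.311 and 0.306 and move to 0.677 and 0.492 with the weighting, and dotted lines mark the 2-fold rule. The diamonds of Rarb, Dhrs3 and Cyp26b1 rest on few WT UMIs.

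Among dCD cells, 513 had at least 1 UMI of *Stra8* and 1186 had none, with medians of 12538 and 11496.5 UMIs per cell. Most of the measured members and response genes were lower in the cells with *Stra8*. Of 7 members with enough UMIs, none was higher in cells with *Stra8* (3.51% of 12028 genes were) and 4 were lower (9.3%). *Rarb*, itself a textbook target, had 17 UMIs in the cells with and 187 in those without, 2.31 against 12.0 CPM, 5.21-fold lower (ratio 0.192, 0.109 to 0.316). It was found in 12 of 513 cells (2.34%, 1.21 to 4.05) against 12.5% (10.7 to 14.5), and after thinning to 6831 UMIs per cell in 0.817% of 367 and 7.57% of 1162 cells. *Cyp26b1* was 0.680 against 4.76 CPM (ratio 0.143, 0.0450 to 0.348), *Dhrs3* had 11 against 88 UMIs (0.264, 0.127 to 0.496) and *Crabp2* 10.5 against 26.8 (0.391, 0.302 to 0.499).

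The 3 remaining members did not pass. *Crabp1* was 18.4 against 32.1 CPM (0.572, 0.470 to 0.694), *Rara* 46.5 against 41.3 (1.12, 0.984 to 1.28) and *Rarg* 33.9 against 23.6 (1.44, 1.22 to 1.69). *Cyp26a1* had 2 UMIs in the cells with *Stra8* and 42 in those without, and *Aldh1a2* 4 and 9, below the minimum of 50.

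Of 8 response genes with enough UMIs, 5 were lower in cells with *Stra8*. *Meis2* was 16.4 against 124 CPM, *Meis1* 3.40 against 18.4, *Hoxb2* 2.72 against 24.5 and *Hoxb4* 2.58 against 7.92, and *Hoxb1* had 0 UMIs against 52. *Cdx1*, a homeobox gene that also answers to WNT, was higher at 8.02 against 2.32 CPM (3.46, 2.25 to 5.39). Of the other pathway genes, 2 of 10 were lower (*Rdh10* and *Nrip1*) and none higher. The germline list went the opposite way, with 8 of 12 measured genes higher and none lower. They included *Dazl* (54.8 against 13.8 CPM), the meiotic cohesin *Rec8* (37.7 against 16.9), the synaptonemal proteins *Sycp1* and *Sycp3*, and *Meioc*, a factor of meiotic prophase. The medians of the log2 ratio were -1.28 for the members, -1.72 for the response genes, 1.14 for the germline genes and -0.03 for all measured genes. The genes with the highest ratios were *Gm9112* (21.6), *Dmrtb1* (9.81), *Wfdc10* (8.87), *Tcstv3* (8.27) and *Tslrn1* (6.96).

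**Figure D4:**
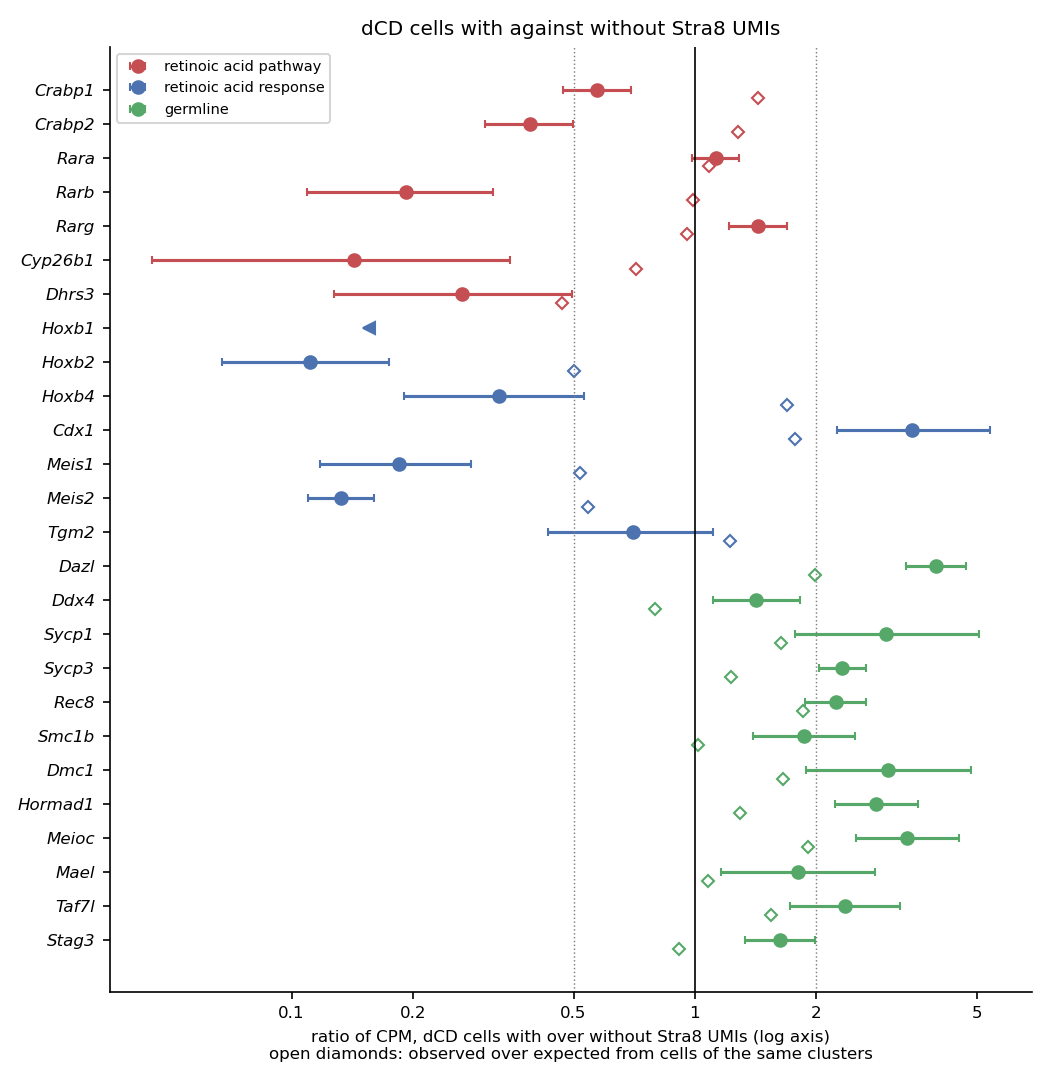
Ratio of CPM in dCD cells with over without Stra8 UMIs (log axis) for members, germline genes and 7 response genes with at least 50 UMIs; filled points have exact 95% conditional intervals, the triangle marks the upper bound of Hoxb1 (0 UMIs in cells with Stra8), and open diamonds compare with the level expected from the same clusters. Rarb lies at 0.192 and its diamond at 0.988, and Hoxb1 has no diamond since its observed count is 0.

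These differences followed the clusters to a large extent. Of the 513 dCD cells with *Stra8*, 489 (95.3%, 93.1 to 97.0) were in clusters 1 and 3, where 50.9% and 48.8% of dCD cells had a UMI of it. In cluster 2, where most *Rarb* UMIs lay, 1.73% of 521 dCD cells had one, with a lower median depth of 10679.5 against 11769 and 14589 UMIs per cell in clusters 1 and 3 over both genotypes. Against the number of UMIs expected from cells without *Stra8* in the same clusters, *Rarb* had 17 observed and 17.2 expected (0.988, 0.576 to 1.58). *Crabp1* was above 1 on this scale (1.43, 1.20 to 1.69) and *Crabp2* turned from 0.391 to 1.28 (1.01 to 1.60). *Rara* stood at 1.08 (0.972 to 1.20) and *Rarg* at 0.958 (0.843 to 1.08). *Dhrs3* was the 1 member past 2-fold, with 11 UMIs against 23.5 expected (0.468, 0.234 to 0.837).

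Several response genes stayed below 1 within clusters. *Meis2* had 121 UMIs observed and 223 expected (0.543, 0.451 to 0.649), *Meis1* 25 and 48.1 (0.519, 0.336 to 0.767), *Hoxb2* 20 and 39.9 (0.502, 0.306 to 0.775) and *Hoxb1* 0 and 15.4 (an upper bound of 0.240). *Hoxb4* (1.69, 1.02 to 2.65) and *Cdx1* (1.77, 1.35 to 2.28) lay above 1. Of the germline genes, *Dazl* (1.98, 1.79 to 2.19), *Meioc* (1.91, 1.59 to 2.28) and *Rec8* (1.85, 1.64 to 2.09) were the highest, whereas *Ddx4* was 0.795 (0.654 to 0.958).

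Cells were also divided by their number of *Stra8* UMIs, into 1186 cells with 0, 157 with 1, 112 with 2 and 244 with 3 or more. *Rarb* was 12.0 CPM (10.4 to 13.9), 4.74 (2.27 to 8.72), 3.47 (1.13 to 8.09) and 0.526 (0.0636 to 1.90) in that order, and *Meis2* went from 124 CPM with 0 to 25.1 with 1 and 11.8 with 3 or more. Only the first and last of the 3 groups with *Stra8* had intervals of *Rarb* that do not overlap. *Rarg* was 23.6, 29.9, 34.0 and 36.0 CPM and *Dazl* 13.8, 44.6, 54.1 and 60.7. *Crabp1* was 11.9 (7.67 to 17.5), 19.4 (12.9 to 28.1) and 21.5 CPM (17.1 to 26.7) in cells with 1, 2 and 3 or more, all below the 32.1 CPM of cells with 0. The group with 3 or more UMIs was the deepest, with a median of 13493.5 UMIs per cell. Each group pools cells of all clusters, and clusters 1 and 3 held 97.5% of *Stra8* UMIs and 11.8% of *Rarb* UMIs in dCD. Whether levels follow the number of *Stra8* UMIs within a cluster was not tested.

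**Figure D5:**
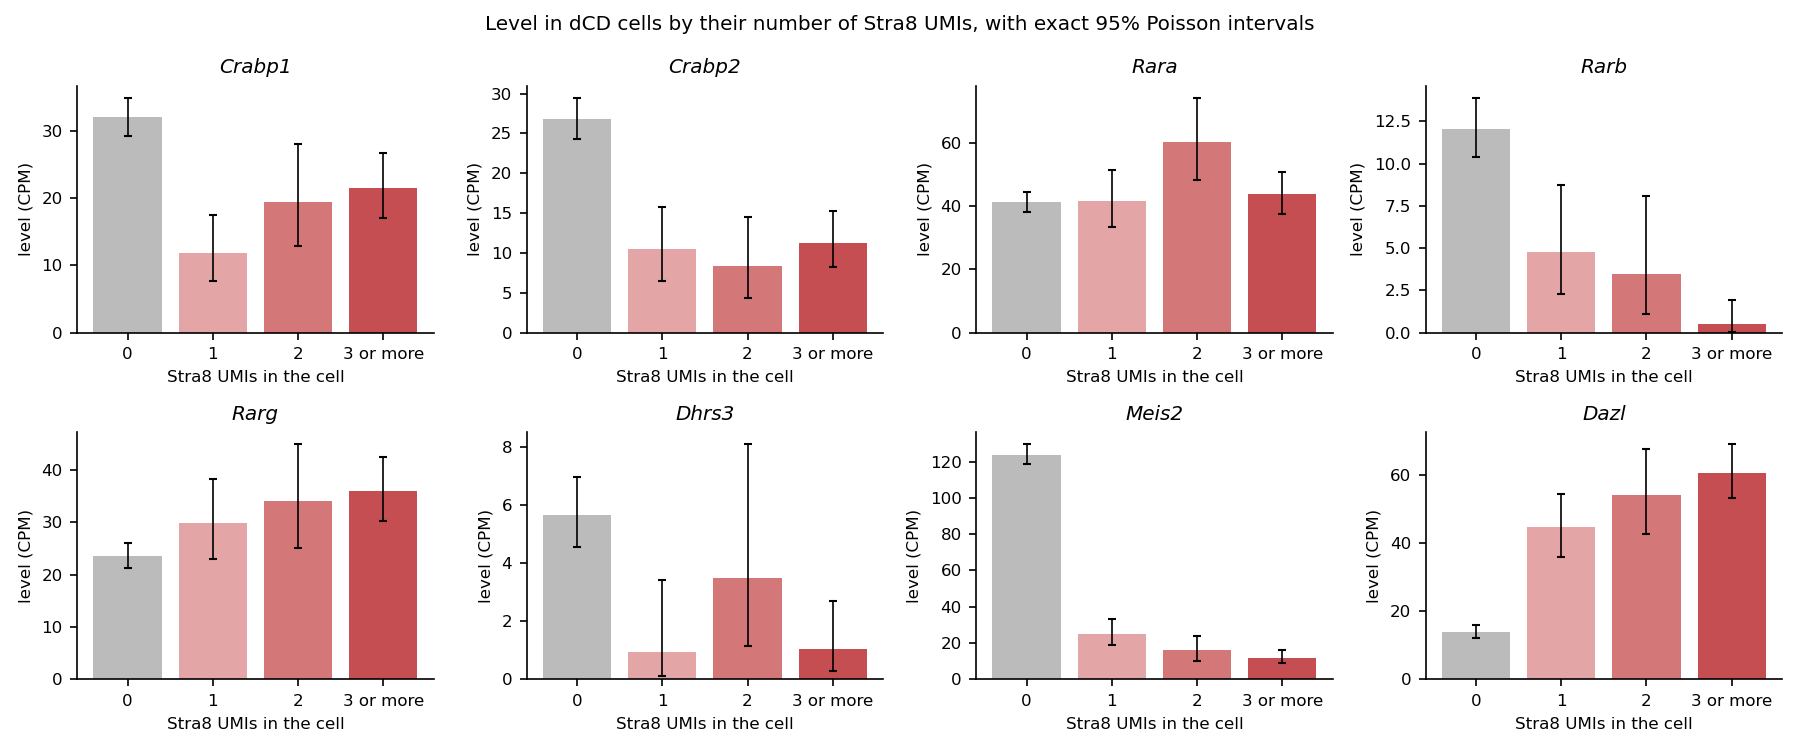
Level (CPM, linear axes from 0) of 6 members, the response gene Meis2 and the germline gene Dazl in dCD cells with 0, 1, 2 or 3 or more Stra8 UMIs, with exact 95% Poisson intervals. Rarb is 12.0 CPM in cells with 0 and 0.526 in cells with 3 or more, while Dazl is 13.8 and 60.7. Each group pools cells of all clusters.

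In the other libraries with *Stra8* the split gave few counts for the response. In S+L ESC, 87 cells with and 222 without *Stra8* had 28.1 and 19.7 CPM of *Crabp1* (1.43, 1.08 to 1.88), 34.2 and 44.1 of *Rara* (0.776, 0.616 to 0.970) and 49.1 and 59.2 of *Rarg* (0.828), and none of the 3 measured members passed the 2-fold rule. *Crabp2* had 1 and 14 UMIs there, *Rarb* 0 and 2, *Cyp26a1* none, and *Dhrs3* 7 and 4. In d4 EB of E14Tg2a, 9 cells had *Stra8*, with *Crabp1* at 22.7 CPM against 134 in the other 359 (0.169, 0.0618 to 0.368) and *Meis2* at 30.3 against 111 (0.272, 0.117 to 0.538). Of the 33 *Stra8* UMIs of that library 30 lay in the listed PGCLC, where *Crabp1* had 0, so this split largely follows the PGCLC. WT d4 EB of R1 held 5 cells with *Stra8*, too few to compare.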

How the data were processed

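The authors counted UMIs of 8 E14Tg2a libraries (10x Genomics 3′ kit, v2) with Cell Ranger on GRCm38, aggregated them to an equal number of mapped reads per cell, and deposited UMI counts. For the 2 R1 libraries (v3 kit), counts of cells with at least 2000 genes were deposited; the counting tool is not given in the sources used here. The count tables held 27998 genes and 2782 cells (E14Tg2a) and 32285 genes and 3115 cells (R1), and 0 columns were left unused. A UMI is counted at the 3′ end, so CPM carry no correction for length, and overlapping transcripts cannot be told apart. Ensembl identifiers got symbols and positions from GENCODE vM21. Cells of E14Tg2a were assigned by barcode suffix. The broken header was rejoined, and 1 barcode was short. In E14Tg2a, 8 barcodes occurred in more than 1 library, and in R1 0 did.

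Since each condition had 1 library, no test was run. The members and lists were chosen with earlier results of these data known. The genes named are the 9 members and *Stra8*, list genes past the 2-fold rule, up to 3 genes per member with the highest Pearson r (members with at least 100 UMIs and genes with at least 500), the 5 genes with the highest ratio in dCD cells with *Stra8*, and 3 leading genes per cluster. A few genes that these rules name are not reported here, though the counts over lists include them. List genes named within clusters, and the members beside a count, were chosen after their values were seen. The lists were 16 other pathway genes, 12 response genes, 15 germline genes and 6 markers for each of 9 cell classes.

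Clusters were made by k-means on principal components of 2000 variable genes (20 components with 3 clusters in E14Tg2a EB of d2 and 4 in those of d4, 10 components with 9 clusters in R1). They took a class name where at least 3 of its markers and their median were 2-fold higher and the leading genes did not go against it. Scrublet in scanpy 1.11.5 marked 0.441% to 7.61% of the cells of a library as doublets, which were kept. Medians of log2 ratios used a pseudocount of 1 CPM. Alternatives are given in the closing section. Python 3.11.15, numpy 2.4.6, scipy 1.17.1, pandas 2.3.3, scikit-learn 1.9.0, matplotlib 3.10.9, R 4.3.3 and edgeR 4.0.16 (TMM factors only) were used, and the scripts were tested on simulated counts.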

Additional observations from a re-analysis of the deposited data

How the results depend on the processing

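Counts of members past the 2-fold rule stayed within 1.5 times their value in 41 of 52 alternatives. With no minimum of UMIs they were 6 in place of 3 from 2i ESC to d2 EpiLC, 8 in place of 5 from d2 EpiLC to d4 EB and 4 in place of 2 from 2i to S+L ESC. Under a 3-fold rule they were 2 in place of 4 from d2 EpiLC to EpiSC, 2 in place of 5 from d2 EpiLC to d4 EB and 1 in place of 2 from 2i to S+L ESC, and under a 1.5-fold rule 5 in place of 3 between WT and dCD. For dCD cells with against without *Stra8*, the count of 4 became 2 after thinning (5 members measured), 1 against the level expected from the same clusters, 7 in the R1 WT library (5 cells with *Stra8*, where 57.5% of all genes passed) and 0 in S+L ESC. Of 168 ratios of single members under alternatives that can move a ratio, 140 stayed within the counting interval of their main value, and 17 came to lie on the other side of 1. Of members past the 2-fold rule these were *Crabp2*, at 1.28 against the level expected from the same clusters, and *Dhrs3*, at 3.96 in S+L ESC (7 and 4 UMIs). Of the others, the same-cluster level gave 1.43 for *Crabp1* and 0.958 for *Rarg*, the weighted WT level 2.39 for *Cyp26a1* (0.899 with WT clusters at 0 set to their limit), and the splits in R1 WT and S+L ESC ratios under 1 for *Rara* and *Rarg* and 1.43 for *Crabp1* in S+L ESC. TMM factors shifted log2 ratios by -0.27 from 2i ESC to d2 EpiLC, by -0.18 from d2 EpiLC to d4 EB and by -0.10 from d2 EpiLC to EpiSC, and *Rara* then counted as lower in d2 EpiLC (0.493). The split in S+L ESC and the split without cluster 9 (again 4 members) were chosen after seeing the data. No paired analysis was possible because each condition had 1 library. Depth limited *Aldh1a2*, *Cyp26a1* and *Cyp26b1*, with at most 79 UMIs each in an R1 library.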
